A study of Rattus norvegicus with 12 samples.

Results

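The D-type cyclins, their kinases and the inhibitors of those kinases were followed in the insulin-secreting rat insulinoma line INS-1 832/13 after transfer of ChREBPβ. The members were chosen by name, as the entries of the count table called Ccnd1, Ccnd2, Ccnd3, Cdk4, Cdk6, Cdkn1a, Cdkn1b, Cdkn1c, Cdkn2c or Cdkn2d. Of these 10 names, 9 had an entry among the 28728 of the table, and 8 had enough counts to be tested among the 14669 genes tested. Cdkn2d was not analysed here because no entry carried that name, and Cdkn1c had too few counts.

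The 4 groups compared were all of this single line. Cells received an adenovirus for GFP, the control, or an adenovirus for ChREBPβ, and either virus was given at 2 mM or at 11 mM glucose over 48 h. That time is the one stated for the sequencing experiment, and the general methods for adenovirus state a longer exposure. ChREBPβ is the short, constitutively active product of the Mlxipl gene, and the virus carried a tagged mouse sequence. Each of the 4 groups held 3 libraries, called a, b and c, and the study describes its expression values as coming from independent experiments. The labels do not tie a library to a culture or day, so p-values measure the spread between these libraries.

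D-type cyclins bind Cdk4 or Cdk6 in the G1 phase, and the active kinase phosphorylates the retinoblastoma protein, which releases E2F factors and lets the cell enter S phase. Inhibitors of the INK4 family, such as p18 encoded by Cdkn2c, bind the kinases and keep cyclins away. Inhibitors of the CIP/KIP family, p21, p27 and p57, bind the assembled cyclin and kinase complexes. In pancreatic β-cells, Cdk4 and cyclin D2 are known to be needed for the postnatal growth of β-cell mass in mice.

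Levels are given as TMM-scaled CPM, a gene's reads set against the reads of all tested genes in its library, corrected by edgeR's TMM factor. They allow a gene to be compared between libraries, but not with another gene, since they are not divided by length. Library totals ranged from 25754488 to 60531215 counts. Within the ChREBPβ group at 2 mM, library a held 28595982 counts and the others 57726412 and 57313995. The rat Mlxipl count was lower with the ChREBPβ virus at 2 mM (log2 fold change -0.33, called, edgeR adjusted p = 2.03e-05). At 11 mM it lay at -0.14, under the minimum fold used here. A separate entry named ChREBPb lay at 0.21 at 2 mM, also under that minimum, and at 0.37 at 11 mM, which was called (edgeR adjusted p = 6.9e-05). The sources used here do not describe the sequence behind this entry. The virus carries the mouse sequence, so the groups are named by their labels. Pklr, a known ChREBP target, was higher with ChREBPβ, by 1.69 on the log2 scale at 2 mM and by 1.08 at 11 mM. All 15 β-cell markers examined averaged at least 1 CPM, as did 1 of 3 α-cell markers, which is Gcg, and 1 of 3 duct markers. So did 1 of 5 mesenchymal and 1 of 3 endothelial markers. None of the 3 immune markers did, nor did any δ-cell, PP-cell or acinar marker, and Ptprc and Cftr had no counts. A difference between groups was called where the adjusted p was under 0.05 and the fold was 1.2 or more.

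With ChREBPβ at 2 mM glucose, 6 of the 8 tested members were called, against 44.1% of all tested genes in that comparison. Ccnd1, Ccnd2, Cdk4 and Cdkn1a were higher, while Ccnd3 and Cdkn2c were lower. At 11 mM, 5 of the 8 were called against 33.4% of all genes, and these were the same genes without Cdk4. The median log2 fold change of the 8 members was 0.22 at 2 mM and 0.14 at 11 mM, beside -0.02 over all tested genes in both comparisons. The plot of levels by library shows each gene's 12 values. These are bulk RNA samples, in which fewer cells of a type and less RNA per cell cannot be told apart. The summed level of the β-cell markers moved with the virus, from between 26674 and 29878 CPM with GFP at 2 mM to between 14338 and 14730 with ChREBPβ. At 11 mM it went from between 21472 and 23268 to between 13365 and 13885. The summed duct markers went the other way, from between 0.588 and 0.994 CPM to between 8.09 and 8.27 at 2 mM. At 11 mM they went from between 1.02 and 1.23 to between 8.14 and 9.69. Only 1 of the 3 duct markers averaged at least 1 CPM, and Cftr had no counts. The summed α-cell markers, nearly all Gcg, went from between 1589 and 1667 CPM to between 429 and 440 at 2 mM, and from between 1606 and 1720 to between 451 and 502 at 11 mM. The summed immune markers went from between 0.321 and 0.441 CPM to between 0.606 and 1.18 at 2 mM, and at 11 mM the ranges overlapped. The part of these shifts in the results was not tested.

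**Figure D1:**
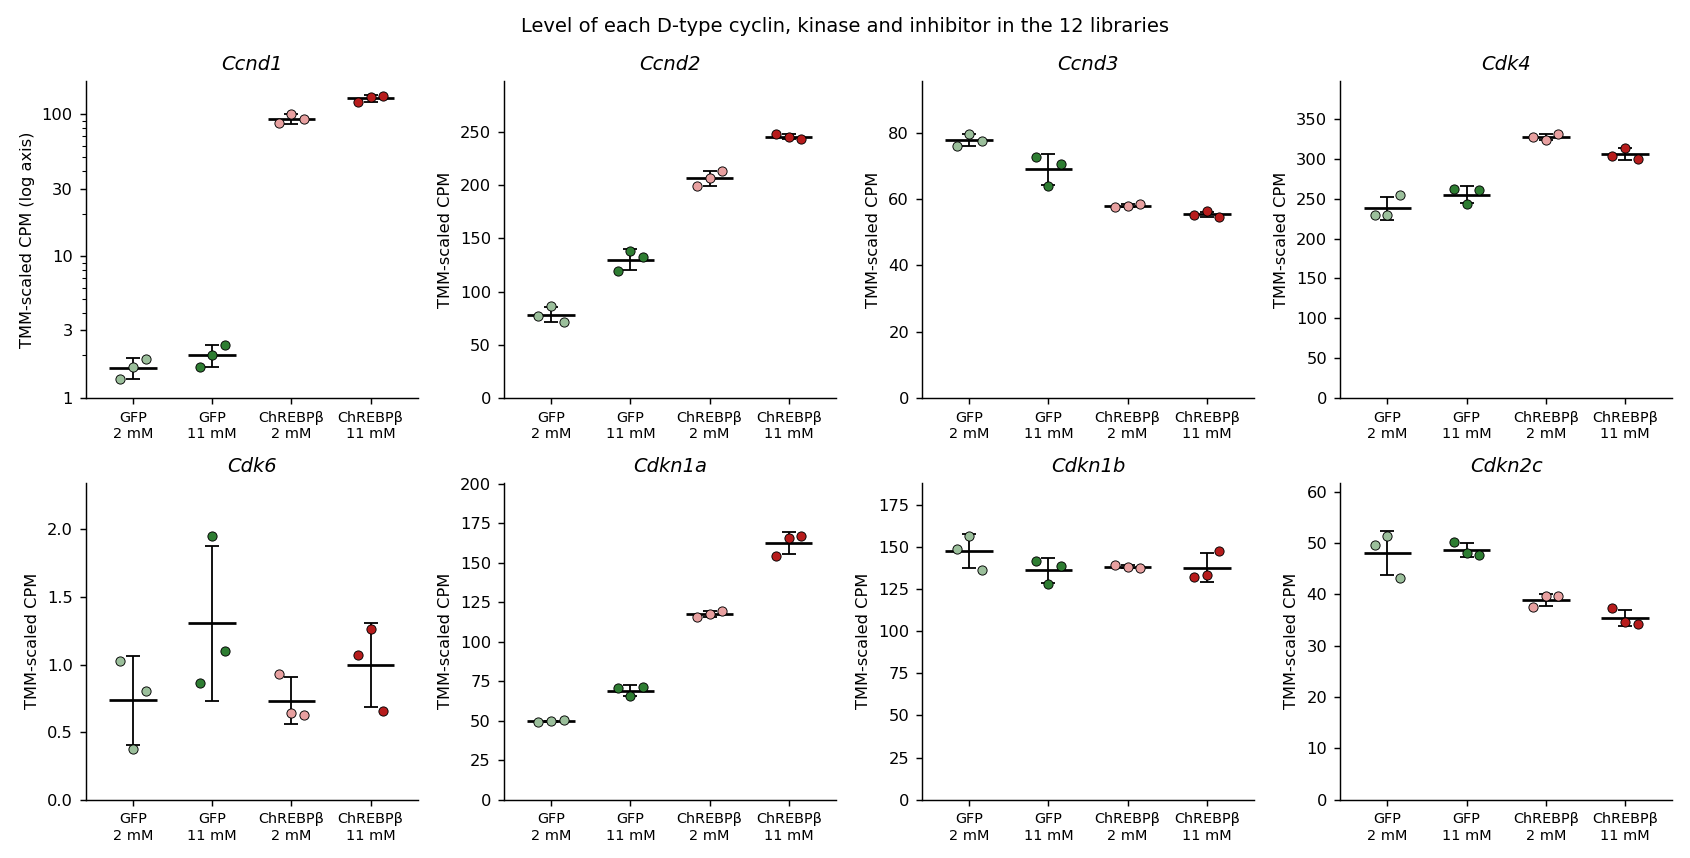
TMM-scaled CPM of the 8 tested members in each of the 12 libraries (points), with the mean (horizontal line) and SD of each group of 3. The axis is logarithmic for Ccnd1 and starts at 0 for the others. The points with ChREBPβ lie above all those with GFP for Ccnd1, Ccnd2, Cdk4 and Cdkn1a and below them for Ccnd3 and Cdkn2c.

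Ccnd1, which encodes cyclin D1, went from scarcely counted to abundant. In GFP libraries it was at 1.36, 1.66 and 1.89 CPM at 2 mM glucose (37, 57 and 59 counts) and at 1.66, 2.01 and 2.35 CPM at 11 mM (75, 75 and 111 counts). In ChREBPβ libraries it was at 86.6, 101 and 92.4 CPM at 2 mM and at 122, 133 and 135 CPM at 11 mM. The lowest ChREBPβ library therefore stood far above the highest GFP library, and glucose separated the groups only among ChREBPβ libraries. Ccnd1 was higher with ChREBPβ by 5.82 on the log2 scale at 2 mM (SE 0.10, adjusted p = 1.83e-19), a 56.6-fold difference. At 11 mM the difference was 6.01 (SE 0.09, adjusted p = 3.33e-20), or 64.6-fold. The low GFP counts limit the precision of these folds more than the ChREBPβ counts do, and the 95% interval at 2 mM ran from 5.61 to 6.04.

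Ccnd2 encodes cyclin D2 and responded to both the virus and glucose. Its reads gave 77.5, 86.1 and 71.6 CPM in the GFP libraries of 2 mM glucose, against 120, 139 and 132 CPM in those of 11 mM. In ChREBPβ cells the values were 199, 207 and 213 CPM at 2 mM, against 248, 246 and 243 CPM at 11 mM. The 4 groups did not overlap, and they stood in the order GFP at 2 mM, GFP at 11 mM, ChREBPβ at 2 mM, ChREBPβ at 11 mM. Against GFP, the log2 fold change was 1.40 at 2 mM (SE 0.06, adjusted p = 1.02e-13) and 0.92 at 11 mM (SE 0.06, adjusted p = 6.92e-11).

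Ccnd3, encoding cyclin D3, moved against the other D-type cyclins. Its reads gave 76.1, 79.7 and 77.5 CPM in the GFP libraries of 2 mM glucose, against 72.8, 63.8 and 70.5 CPM in those of 11 mM. The ChREBPβ libraries gave 57.7, 58.1 and 58.5 CPM at 2 mM, against 55.2, 56.3 and 54.6 CPM at 11 mM. All 6 ChREBPβ libraries were below all 6 GFP libraries, within a narrow range of their own. Ccnd3 changed by -0.42 on the log2 scale at 2 mM (SE 0.05, adjusted p = 3.81e-07) and -0.32 at 11 mM (SE 0.05, adjusted p = 1.61e-05), which are 1.34-fold and 1.25-fold lower.

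The balance of reads between the D-type cyclins can be followed within a library, where no scaling enters. A ratio of counts of different genes depends on their unknown lengths, so only its change between groups is read. The ratio of Ccnd1 to Ccnd2 reads was 0.0211 ± 0.0047 with GFP and 0.452 ± 0.0306 with ChREBPβ at 2 mM (mean ± SD, n = 3 libraries each), a 21.8-fold change. At 11 mM it was 0.0154 ± 0.00208 with GFP and 0.529 ± 0.0321 with ChREBPβ, a 34.6-fold change. The ratio of Ccnd3 to Ccnd2 reads went down in the same order of groups, from 0.997 ± 0.0791 with GFP at 2 mM and 0.534 ± 0.0737 at 11 mM to 0.282 ± 0.00799 and 0.225 ± 0.00359 in the ChREBPβ groups. Cyclin D1 reads thus gained against cyclin D2, and cyclin D2 reads against cyclin D3, at each glucose level. These ratios were chosen after the values were seen and carry no test.

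**Figure D2:**
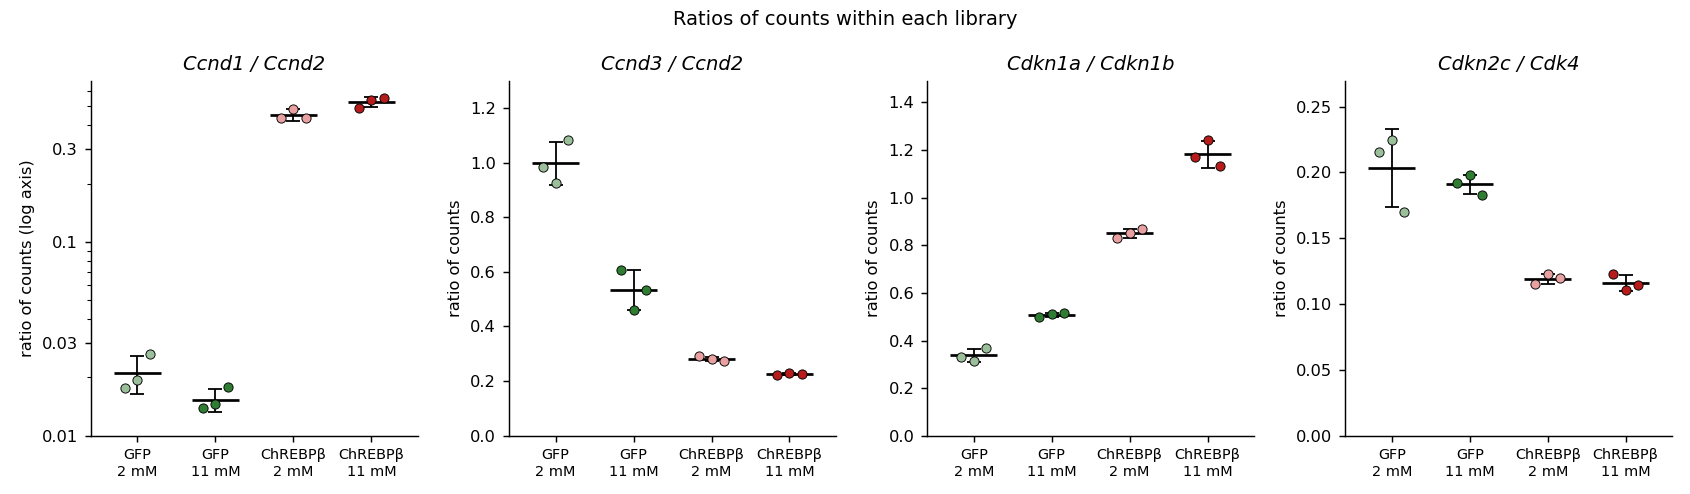
Ratios of the counts of named members in each library (points), with the mean and SD of each group of 3 libraries. The axis is logarithmic for Ccnd1 to Ccnd2 and starts at 0 for the others. The mean ratio of Ccnd1 to Ccnd2 goes from 0.0211 to 0.452 at 2 mM, while the ratios of Ccnd3 to Ccnd2 and Cdkn2c to Cdk4 are lower and that of Cdkn1a to Cdkn1b is higher with ChREBPβ.

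Of the kinases, Cdk4 was highly counted and Cdk6 was scarcely counted, with 13 to 73 counts a library. Cdk4, the catalytic partner of the D-type cyclins, gave 230, 229 and 255 CPM in the GFP libraries of 2 mM glucose, against 262, 243 and 260 CPM in those of 11 mM. In ChREBPβ cells the values were 327, 323 and 331 CPM at 2 mM, against 304, 314 and 299 CPM at 11 mM. Every ChREBPβ library was above every GFP library. Cdk4 changed by 0.46 on the log2 scale at 2 mM (SE 0.05, adjusted p = 3.57e-08), or 1.38-fold. At 11 mM it was 0.26 (SE 0.04, adjusted p = 6.88e-05), and this value lay directly under the minimum of 1.2-fold, so it was not called. It was called with RLE factors, where it was 0.28. In RefSeq the Cdk4 gene overlaps Tspan31, and the sources used here do not say whether counting used strand. Tspan31 lay at 0.04 on the log2 scale at 2 mM and 0.08 at 11 mM, and neither was called.

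Cdk6, the other kinase that D-type cyclins bind, gave 1.03, 0.379 and 0.801 CPM in the GFP libraries of 2 mM glucose, against 0.863, 1.96 and 1.10 CPM in those of 11 mM. The ChREBPβ libraries gave 0.931, 0.642 and 0.627 CPM at 2 mM, against 1.07, 1.26 and 0.658 CPM at 11 mM. The 4 groups overlapped. Its log2 fold change with the ChREBPβ virus was -0.02 at 2 mM (95% interval -0.86 to 0.81) and -0.36 at 11 mM (-1.05 to 0.33). A change of 1.2-fold in either direction lay within both intervals.

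Among the CIP/KIP inhibitors, Cdkn1a rose while Cdkn1b was not called. Cdkn1a encodes p21, an inhibitor known to arrest cells in G1. Its reads gave 49.2, 49.5 and 50.2 CPM in the GFP libraries of 2 mM glucose, against 70.6, 65.5 and 71.4 CPM in those of 11 mM. In ChREBPβ cells the values were 116, 118 and 120 CPM at 2 mM, against 155, 166 and 167 CPM at 11 mM. The groups followed the same order as for Ccnd2 and did not overlap. Cdkn1a changed with ChREBPβ by 1.24 on the log2 scale at 2 mM (SE 0.05, adjusted p = 1.26e-14) and 1.23 at 11 mM (SE 0.04, adjusted p = 1.43e-14), which are 2.37-fold and 2.35-fold.

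Cdkn1b encodes p27, which in quiescent cells holds cyclin-dependent kinases inactive. Its reads gave 149, 157 and 137 CPM in the GFP libraries of 2 mM glucose, against 142, 128 and 139 CPM in those of 11 mM. The ChREBPβ libraries gave 140, 138 and 138 CPM at 2 mM, against 132, 134 and 148 CPM at 11 mM. The groups overlapped, and the 95% interval of the log2 fold change ran from -0.21 to 0.02 at 2 mM and from -0.10 to 0.13 at 11 mM. A change of 1.2-fold, 0.26 on this scale, lay outside both intervals, which hold for TMM factors. At 2 mM the change was -0.085 with RLE factors, -0.15 with upper quartile factors and -0.19 with library totals. The last 2 had an adjusted p under 0.05 but stayed under the minimum fold. No intervals are given for those settings, so a 1.2-fold decrease is not excluded there. The ratio of Cdkn1a to Cdkn1b reads within a library was 0.338 ± 0.0264 with GFP and 0.850 ± 0.0203 with ChREBPβ at 2 mM glucose. In the same order it was 0.508 ± 0.00916 and 1.18 ± 0.0551 at 11 mM glucose (mean ± SD, n = 3). Cdkn1a and Ccnd2 moved more alike: their read ratio had group means of 0.637, 0.534, 0.570 and 0.662 in the order GFP at 2 and 11 mM and ChREBPβ at 2 and 11 mM.

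Cdkn1c, which encodes p57, an imprinted inhibitor, had 2 counts in library b of ChREBPβ at 2 mM and 0 in the other 11 libraries. A count of 0 in the smallest library allows a level of up to 0.116 CPM, for counting error only.

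Cdkn2c was the member of the INK4 family that could be tested. Its reads gave 49.5, 51.5 and 43.2 CPM in the GFP libraries of 2 mM glucose, against 50.2, 48.1 and 47.7 CPM in those of 11 mM. In ChREBPβ cells the values were 37.6, 39.6 and 39.7 CPM at 2 mM, against 37.3, 34.7 and 34.3 CPM at 11 mM. All ChREBPβ libraries were below all GFP libraries. Cdkn2c changed by -0.30 on the log2 scale at 2 mM (SE 0.06, adjusted p = 2.5e-04) and -0.46 at 11 mM (SE 0.06, adjusted p = 2.04e-06), or 1.23-fold and 1.37-fold lower. Without library b of GFP at 2 mM, the change at 2 mM was -0.24 (adjusted p = 0.00323) and fell under the minimum fold. Against its target kinase, the ratio of Cdkn2c to Cdk4 reads was 0.203 ± 0.0295 with GFP and 0.119 ± 0.00385 with ChREBPβ at 2 mM glucose. In the same order it was 0.191 ± 0.00749 and 0.116 ± 0.00609 at 11 mM glucose (mean ± SD, n = 3).

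Glucose alone, 11 against 2 mM in GFP cells, called 2 of the 8 members, Ccnd2 and Cdkn1a, both higher, against 20.2% of all tested genes. On the log2 scale the change was 0.73 for Ccnd2 (SE 0.06, adjusted p = 2.19e-08) and 0.48 for Cdkn1a (SE 0.05, adjusted p = 2.22e-07). Ccnd1 had a value of 0.28 that did not pass the test (95% interval -0.07 to 0.64). Ccnd3 had a value of -0.17 that passed the adjusted p (0.00965) but not the minimum fold.

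In ChREBPβ cells, 11 against 2 mM glucose also called 2 members, Ccnd1 and Cdkn1a, both higher, against 3.87% of all tested genes. The log2 fold change was 0.47 for Ccnd1 (SE 0.06, adjusted p = 7.04e-05) and 0.47 for Cdkn1a (SE 0.04, adjusted p = 1.56e-06). Ccnd2 had a value of 0.25 (adjusted p = 0.00908), under the minimum fold. The plot of fold changes sets these comparisons beside those of the viruses.

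**Figure D3:**
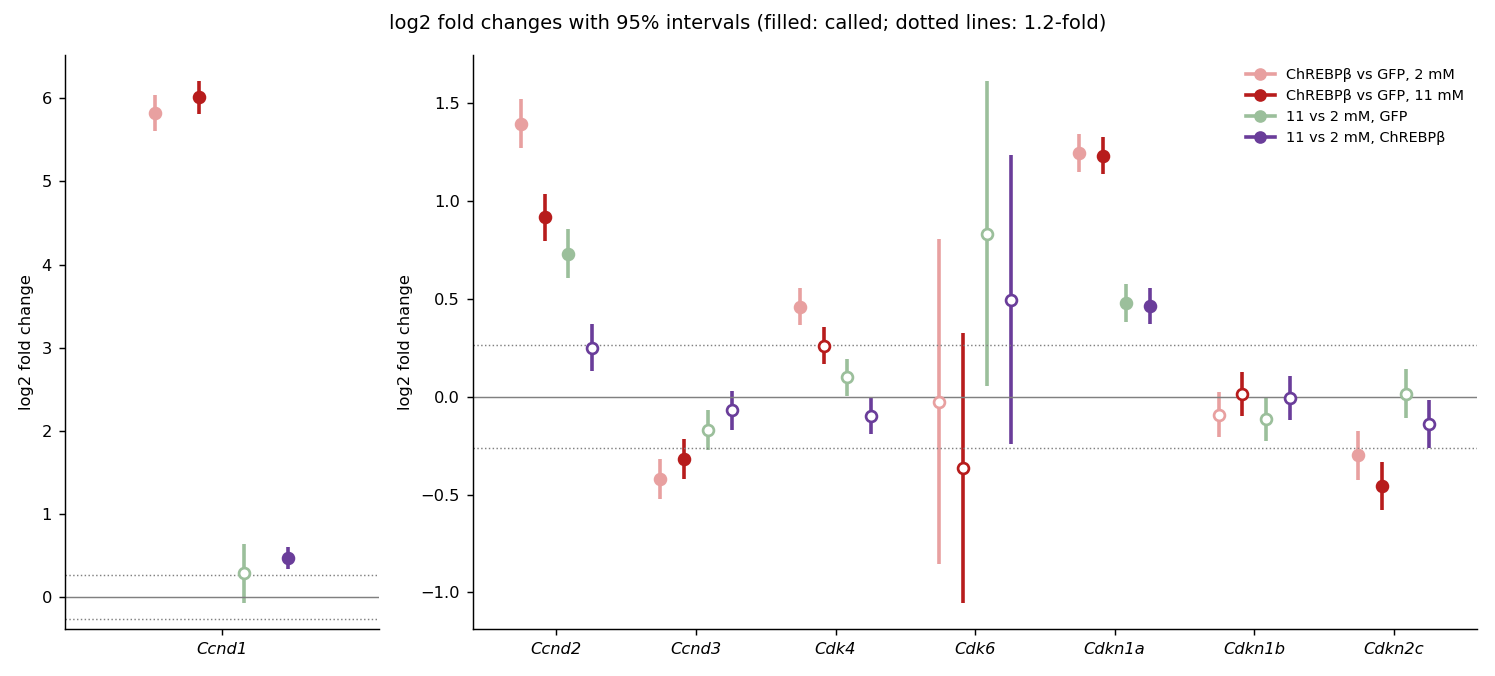
log2 fold changes of the 8 tested members (points) with their 95% intervals (bars) for ChREBPβ against GFP at each glucose level and for 11 against 2 mM glucose with each virus. Filled points were called, open points were not, and dotted lines mark 1.2-fold. Ccnd1 stands near 6 with ChREBPβ at both glucose levels, and the intervals of Cdk6 are the widest.

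Whether the response to ChREBPβ differed between the glucose levels was tested directly as an interaction, which called 1 of the 8 members, against 6.31% of all tested genes. This member was Ccnd2, whose log2 response to ChREBPβ was smaller at 11 mM by 0.48 (interaction -0.48, SE 0.08, adjusted p = 8.99e-04). Cdkn1a lay at -0.01 (95% interval -0.15 to 0.12), so its fold with ChREBPβ differed between the glucose levels by less than 1.2-fold within that interval. The interaction was 0.19 for Ccnd1 (-0.19 to 0.57) and -0.20 for Cdk4 (adjusted p = 0.0593), and neither passed the test.

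The remaining comparisons cross the virus with the glucose level. Between ChREBPβ at 11 mM and GFP at 2 mM, 6 of the 8 members were called, 4 higher and 2 lower, against 50.5% of all tested genes. Ccnd1 had its largest log2 fold change of the comparisons made there, 6.30 or 78.6-fold, and Cdkn1a reached 1.71. Between ChREBPβ at 2 mM and GFP at 11 mM, 5 of the 8 were called, against 27% of all tested genes. Ccnd1 (5.54), Cdkn1a (0.77), Ccnd2 (0.67) and Cdk4 (0.36) were higher and Cdkn2c (-0.32) was lower, although the glucose level was the lower of the 2. Ccnd3 was at -0.25 in that comparison, under the minimum fold. All these comparisons share libraries with those above and are not independent of them.

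The other genes of the pathway were taken from a list of 42, of which 40 were tested. At 2 mM, ChREBPβ called 16 of them, 12 higher and 4 lower, with a median log2 fold change of 0.09. At 11 mM it called 9, 5 higher and 4 lower, with a median of 0.03. The 16 of 40 lie near the share of all genes called at 2 mM, and the 9 of 40 below that at 11 mM. Of the 13 pocket proteins, E2F factors and their DP partners, 6 were called at 2 mM (46.2%) and 3 at 11 mM (23.1%). The shares of all tested genes were 44.1% and 33.4%. The 5 genes of later G1/S progression had a median log2 fold change of 0.18 at 2 mM, where 2 of them were called (40%). At 11 mM their median was 0.07 and 0 were called. For the 3 subunits of the Cdk-activating kinase the median was -0.03 and 0.03. Of the 10 chaperone and turnover genes, 5 were called at 2 mM (50%) and 3 at 11 mM (30%). Of the 9 regulators, 3 were called at each glucose level (33.3%). The list's other INK4 genes, Cdkn2a and Cdkn2b, had no counts in any of the 12 libraries.

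Of that list, 8 genes were called at both glucose levels, in the same direction. The share of all tested genes called at both levels was not computed, so this count is not set against it and shows no excess. Myc, a transcription factor that drives growth, was at 37.0, 38.9 and 42.1 CPM with GFP and 114, 108 and 109 CPM with ChREBPβ at 2 mM. At 11 mM it was at 87.7, 90.3 and 95.2 CPM with GFP and 122, 124 and 124 CPM with ChREBPβ. Its log2 fold change was 1.49 at 2 mM (SE 0.05, adjusted p = 2.59e-15) and 0.44 at 11 mM (SE 0.05, adjusted p = 2.02e-07). The interaction for Myc was -1.05, the same sign as that for Ccnd2. That sign was the common one, held by 696 of the 925 called interactions over all tested genes and by all 4 called in the pathway list. E2f2, an activating E2F factor, lay at 0.77 at 2 mM and 0.43 at 11 mM. Cks1b, a cofactor of p27 degradation, was at 0.76 and 0.44. Cdc37, the co-chaperone that helps to fold Cdk4, was at 0.42 and 0.30.

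The 4 genes lower at both glucose levels included Rbl2 and Tfdp2. Rbl2, which encodes the pocket protein p130, lay at -0.49 on the log2 scale at 2 mM and -0.42 at 11 mM. Tfdp2, a DP partner of E2F factors, was at -0.57 and -0.49. Foxo1, a forkhead factor known to activate Cdkn1b, was at -0.53 and -0.37. Fbxo4, a subunit of an E3 ligase linked to cyclin D1 turnover, was at -0.61 and -0.43, at a low level of between 2.30 and 4.52 CPM. The adjusted p of these 4 genes ran from 4.57e-07 for Foxo1 at 2 mM to 0.0146 for Fbxo4 at 11 mM.

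**Figure D4:**
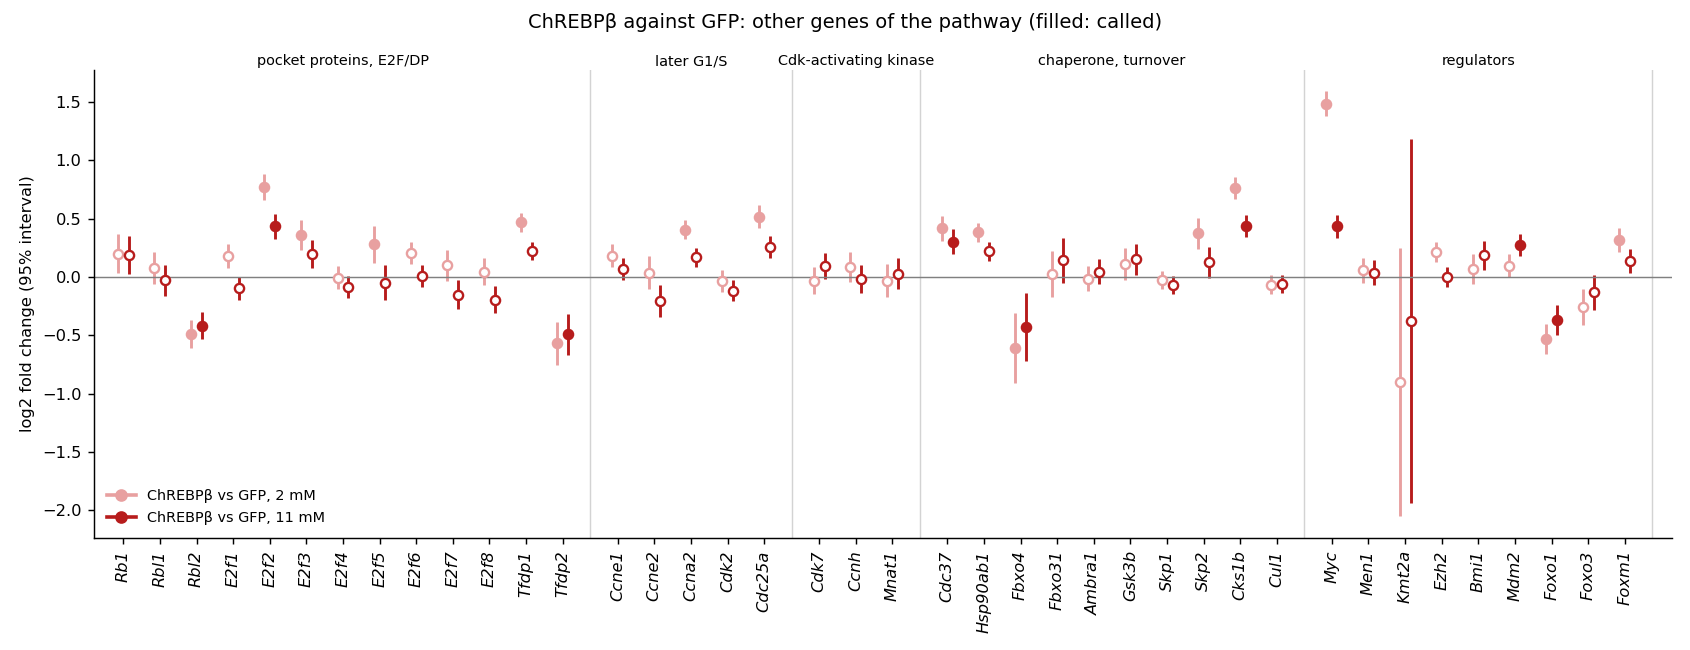
log2 fold changes of ChREBPβ against GFP at 2 and 11 mM glucose for the 40 tested genes of the pathway list (points) with 95% intervals (bars), grouped by role. Filled points were called. Myc is highest at 2 mM (1.49) and lower at 11 mM (0.44), and Rbl2, Tfdp2, Fbxo4 and Foxo1 are below 0 in both.

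Over the 12 libraries, the genes most like a member were listed by the Pearson correlation of log2 CPM among 10467 genes averaging 5 CPM or more. Since all libraries share the same 4 groups, such correlations mainly describe the order of the groups. For Ccnd1 the highest was Asns, which encodes asparagine synthetase (r = 0.999, Spearman's rho = 0.972), followed by Pxn and Tnxb. Asns moved by far less than Ccnd1, by 1.43 on the log2 scale at 2 mM and 1.40 at 11 mM, while Tnxb moved by 6.06 and 5.75. For Ccnd2 they were Arl6ip1 (r = 0.997), Klhl23 and Rrp7a. For Ccnd3 they were Hdac11 (r = 0.990), Ankrd13d and Ptk2b. For Cdkn1a they were Hsd17b12 (r = 0.996), Eif1 and Kcnk12, and for Cdkn2c Tmem68 (r = 0.980), Cmas and Sybu.

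Promoter sequence was used for the 6 members that matched the RefSeq promoter table of the GRCr8 build, which are Ccnd3, Cdk4, Cdkn1a, Cdkn1b, Cdkn2c and Cdkn2d. ChREBP binds the carbohydrate response element, a tandem of E-boxes spaced by 5 bases. The 250 bases before each start were searched on both strands for CACGTG (E-box), for that tandem, for TGACGTCA (CRE), TGACTCA (AP-1), GGGCGG (GC box) and CCAAT. Of 33469 promoters in the table, 5.59% held CACGTG, 1.59% the CRE, 4.05% AP-1, 30.5% the GC box and 34% CCAAT. The tandem was searched only as an exact pair of CACGTG, and no promoter in the table held it. Looser pairs of E-boxes were not searched, so this does not show that a promoter lacks a carbohydrate response element. The windows of the 4 of these genes that were called at 2 mM, 2 higher and 2 lower, are shown 5′ to 3′ on the gene's strand with matches in capitals.
Cdk4 (chr7:64771203-64771452, plus strand): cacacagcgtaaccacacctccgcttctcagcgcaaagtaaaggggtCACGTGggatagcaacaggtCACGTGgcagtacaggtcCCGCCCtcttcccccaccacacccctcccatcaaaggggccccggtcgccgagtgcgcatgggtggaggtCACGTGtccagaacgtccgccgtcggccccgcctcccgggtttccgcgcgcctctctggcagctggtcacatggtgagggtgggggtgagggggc
Cdkn1a (chr20:7150682-7150931, plus strand): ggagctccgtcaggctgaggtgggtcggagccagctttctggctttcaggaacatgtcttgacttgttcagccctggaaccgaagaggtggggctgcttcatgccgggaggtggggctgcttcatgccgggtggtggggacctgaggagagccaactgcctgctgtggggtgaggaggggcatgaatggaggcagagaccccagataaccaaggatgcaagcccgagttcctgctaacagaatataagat
Ccnd3 (chr9:20897876-20898125, minus strand): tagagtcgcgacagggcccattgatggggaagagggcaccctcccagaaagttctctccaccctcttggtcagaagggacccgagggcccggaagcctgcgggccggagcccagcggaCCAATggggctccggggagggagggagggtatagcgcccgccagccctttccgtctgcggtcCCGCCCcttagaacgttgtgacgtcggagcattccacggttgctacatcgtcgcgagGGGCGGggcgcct
Cdkn2c (chr5:129644892-129645141, minus strand): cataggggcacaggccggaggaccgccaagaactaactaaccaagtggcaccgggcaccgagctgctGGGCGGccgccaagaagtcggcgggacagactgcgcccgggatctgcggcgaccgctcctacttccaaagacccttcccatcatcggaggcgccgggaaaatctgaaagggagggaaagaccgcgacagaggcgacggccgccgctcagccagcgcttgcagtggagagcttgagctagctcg
Cdk4 held 3 E-boxes, starting 203, 183 and 95 bases before the start, and 1 GC box. Cdkn1a, with the larger response of these 2, held none of the motifs in this window. A single window was searched for each gene, so any other start of a gene was not covered. Ccnd3 held 2 GC boxes and a CCAAT, and Cdkn2c 1 GC box. Cdkn1b, which was not called, held 1 GC box and 2 CCAAT matches. These matches describe letters in a window and do not show binding.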

How the data were processed

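RNA from 12 libraries of INS-1 832/13 cells was amplified and sequenced by the study. The authors deposited raw counts of reads per gene without normalization, and per the submitters' processing notes used the Rnor_6.0 build and edgeR. The aligner and counting program are not given in the sources used here. The table also holds the authors' group means, which were not used, and 0 other columns of single samples. The entry without a gene name, between 0.0043% and 0.006% of a library, was left out.

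Counts were analysed in R 4.3.3 with edgeR 4.0.16. Genes were filtered with filterByExpr and scaled by TMM factors, which lay between 0.958 and 1.06. A single quasi-likelihood fit of all 12 libraries, with the group as factor, gave the 6 comparisons of groups and the interaction, each with Benjamini-Hochberg adjustment over 14669 genes. A gene was called with an adjusted p under 0.05 and at least a 1.2-fold change, the minimum the study's methods use. Log2 CPM for correlations used a prior count of 2. The fit was tested on simulated data. Amplified reads are not independent molecules, so limits from low counts cover counting error only. No 2 libraries of a group agreed within sampling noise (chi-square divided by its degrees of freedom from 3.09 to 17.3).

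The named genes were the members, the genes of the pathway list called in both comparisons of ChREBPβ with GFP, and the 3 genes most like each of Ccnd1, Ccnd2, Ccnd3, Cdkn1a and Cdkn2c. Mlxipl, Pklr and the cell type markers served as checks, and Cdkn2a, Cdkn2b, Tspan31, Mtap, Klhl9 and Dmrta1 were named after their values were seen. The members and lists were chosen with earlier results of these data known. One gene of the pathway list is not reported here and was left out of its counts. Promoters and gene neighbours came from RefSeq tables of GRCr8, and none of their coordinates was set against the files. Figures were drawn with Python 3.11.15. The alternatives were RLE and upper quartile factors, library totals, DESeq2 1.42.0, other filters and minimum folds, a replicate block, fits of the groups compared alone, and leaving out each library.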

Additional observations from a re-analysis of the deposited data

Results flagged for a closer look

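Ccnd2 was the member whose response to ChREBPβ differed between the glucose levels when the difference itself was tested. Against GFP, it changed on the log2 scale by 1.40 in 2 mM and by 0.92 in 11 mM glucose, a difference of -0.48 (SE 0.08, edgeR adjusted p = 8.99e-04, n = 3 libraries in each of the 4 groups). In the GFP libraries Ccnd2 lay between 71.6 and 86.1 CPM at 2 mM and between 120 and 139 CPM at 11 mM. In the ChREBPβ libraries it lay between 199 and 213 CPM and between 243 and 248 CPM. Leaving out any library gave a difference between -0.56 and -0.42, and it was called each time.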

How the results depend on the processing

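Of 1224 single-gene values under 22 alternatives, 1146 kept their direction and their side of the threshold, 29 became called, 20 lost the call and 29, of uncalled values, changed sign. With a minimum of 2-fold the members called were 3 and 2 for ChREBPβ at 2 and 11 mM, 0 and 0 for glucose with GFP and ChREBPβ, 3 for ChREBPβ at 11 mM against GFP at 2 mM, 1 for ChREBPβ at 2 mM against GFP at 11 mM, and 0 for the interaction. Fewer of all 14669 tested genes were called at 2-fold too. For ChREBPβ at 2 mM they were 1456, against 6476 at 1.2-fold. At 11 mM they also fell below the 4904 called at 1.2-fold. Leaving out a library gave 5 to 6 members for ChREBPβ at either glucose level and 2 to 3 for glucose with either virus. These ranges count members only and are not set against the share of all tested genes in the same fits. With library totals in place of TMM the median of all genes lay at -0.12 at 2 mM, -0.10 at 11 mM and -0.13 between ChREBPβ at 11 mM and GFP at 2 mM, against -0.02 in each with TMM, and Cdk4 in the last comparison was then not called (0.25). Ccnd3 for ChREBPβ at 2 mM against GFP at 11 mM was called with upper quartile factors (-0.29) and with library totals (-0.32). Cdk4 with ChREBPβ at 11 mM was called with DESeq2 (0.28), at least 10 counts in every library (0.27) and the compared libraries alone (0.27), and without library a (0.28) or c (0.28) of GFP at 11 mM, a of ChREBPβ at 2 mM (0.27), or a (0.27) or c (0.28) of ChREBPβ at 11 mM. Ccnd2 for glucose in ChREBPβ cells was called without library c of ChREBPβ at 2 mM (0.27).

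Signs changed for Cdkn1b with upper quartile factors and library totals (-0.016 and -0.068 with ChREBPβ at 11 mM, -0.014 and -0.044 for ChREBPβ at 2 mM against GFP at 11 mM) and with RLE and DESeq2 (0.0025 and 0.0025 for glucose in ChREBPβ cells), for Cdkn2c with upper quartile factors and library totals (-0.0054 and -0.016 for glucose with GFP), and for the Cdkn1a interaction with RLE, upper quartile factors, library totals and DESeq2 (0.00076, 0.014, 0.0029 and 0.00021). Leaving out a library gave, in log2, -0.36 to 0.28 (ChREBPβ at 2 mM), -0.59 to 0.026 (11 mM) and -0.64 to 0.049 (interaction) for Cdk6, -0.036 to 0.046 (ChREBPβ at 11 mM), -0.058 to 0.023 (glucose with ChREBPβ) and -0.021 to 0.053 (ChREBPβ at 2 mM against GFP at 11 mM) for Cdkn1b, -0.054 to 0.072 (glucose with GFP) for Cdkn2c and -0.051 to 0.021 (interaction) for Cdkn1a. The cause was not tested. Cdk6 for ChREBPβ at 2 mM against GFP at 11 mM was called under 6 scaling, filter or model alternatives (-0.93 to -0.84), and without library b of GFP at 2 mM (-0.86), a of GFP at 11 mM (-1.09) or c of ChREBPβ at 11 mM (-0.86), within -1.09 to -0.47 over all libraries left out. For glucose with GFP it was called without a filter (0.84) and without library a of GFP at 2 mM (1.14) or a of GFP at 11 mM (1.06), within 0.45 to 1.14. It had 13 to 73 counts a library.

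After group means were removed, the 18 same-letter pairs of libraries correlated between -0.11 and 0.064, with a median of 0.018. The 36 other-letter pairs had a median of -0.010. These values cannot show whether libraries of the same letter came from the same experiment. The fit with a replicate block called 6, 5, 2, 2, 6, 5 and 1 members, as without it. Levels per kilobase were not run, since no transcript lengths were used here.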

Other observations

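Cdkn2a and Cdkn2b, the INK4 genes next to each other in the rat genome, had 0 counts in all 12 libraries, out of 536668296 counts in total. In RefSeq GRCr8 they lie between Mtap and Dmrta1. Mtap had between 606 and 1399 counts a library and Dmrta1 between 318 and 1008. Klhl9, on the far side of Mtap, had between 2190 and 4530 counts. The cause of the zeros was not tested.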
